A study of Mus musculus with 378 samples.

Results

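Chemokine receptor RNA was followed in single T cells from mouse melanoma. The genes were Cxcr3, Cxcr4, Cxcr6, Ccr2, Cx3cr1 and Cxcr5, 6 of the 23420 genes in the expression table, taken by name without regard to their values. The series sampled B16F10 melanomas, a transplantable pigmented tumour, grown in C57BL/6 mice that were wild type (WT) or carried the IL27raKO genotype (KO), which lacks the receptor alpha chain for the cytokine IL-27. It comprised 374 single-cell libraries and 4 population libraries, 1 for each genotype and cell type. Cells with at least 1000 genes above 0 were kept, which removed 76 libraries and left 67 CD8 cells of WT and 74 of KO, and 79 CD4 cells of WT and 78 of KO. CD4 cells were also split by RNA of Foxp3, the transcription factor that defines regulatory T cells, into 30 WT and 39 KO cells above 0 (Foxp3+) and 49 WT and 39 KO cells at 0 (Foxp3-).

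Because the labels gave no animal, every pairing of genotype with cell type counted as 1 sample. No difference below was tested, spreads are over cells, and the intervals are exact 95% Clopper-Pearson intervals that cover counting error only. The protocol text of the labels spoke of CD8+ T cells for every sample, and the CD4 identity rested on the sample titles. The titles of WT CD4 samples held p3 where all others held p2, and each group had its own title word, so neither genotype nor cell type can be told apart from whatever those title parts stand for.

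Chemokine receptors are G-protein-coupled receptors that steer leukocytes along gradients of secreted chemokines. Cxcr3 binds the interferon-induced ligands Cxcl9, Cxcl10 and Cxcl11 and is known from type 1 helper and effector CD8 T cells, where the T-box factor Tbx21 (T-bet) promotes it. Cxcr6 binds Cxcl16 and marks resident and effector T cells, Ccr2 binds Ccl2 and related monocyte chemoattractants, and Cx3cr1 binds Cx3cl1 and marks differentiated cytotoxic cells. Cxcr4 binds Cxcl12 and serves retention and homing, and Cxcr5 binds Cxcl13 and guides follicular T cells and B cells.

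All 6 genes are protein-coding in GENCODE M21 on GRCm38, the mm10 build. Cxcr3 spans chrX:101731535-101734269 on the minus strand, and Cxcr4 spans chr1:128588199-128592293 on the minus strand. The other 4 lie on chromosome 9: Cxcr6 at chr9:123806475-123811760 and Ccr2 at chr9:124101950-124113557, both on the plus strand, and Cx3cr1 at chr9:119901616-120069879 and Cxcr5 at chr9:44511787-44561877, both on the minus strand. Cxcr6 ends 290.19 kb before Ccr2 begins. Values are per gene, so exons and introns were not resolved.

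The promoters of Cxcr3 and Cxcr6 are shown because these receptors crossed 1 log2 unit between KO and WT cells. The 250 bases before the RefSeq start site (GRCm38.p6) are chrX:101734148-101734397 on the minus strand and chr9:123806227-123806476 on the plus strand, each written 5′ to 3′. Capitals mark matches, on either strand, to the T-box core TCACAC, the Runx core TGTGGT and the forkhead core TGTTTA.
Cxcr3: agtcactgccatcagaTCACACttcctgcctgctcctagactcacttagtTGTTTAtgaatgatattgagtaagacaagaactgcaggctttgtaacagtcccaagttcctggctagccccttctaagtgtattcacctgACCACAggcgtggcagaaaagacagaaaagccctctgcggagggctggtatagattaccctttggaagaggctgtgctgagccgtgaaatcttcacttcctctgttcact
Cxcr6: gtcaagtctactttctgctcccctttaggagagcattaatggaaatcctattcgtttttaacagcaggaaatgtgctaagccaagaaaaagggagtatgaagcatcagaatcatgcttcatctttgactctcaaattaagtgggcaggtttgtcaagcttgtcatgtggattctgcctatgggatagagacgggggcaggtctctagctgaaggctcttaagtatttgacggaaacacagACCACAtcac
The GENCODE start of Cxcr3 lies further upstream, inside the stretch printed, and that of Cxcr6 lies 2 bases upstream. The search covered 6 motifs chosen after the sequences had been seen, over windows from 250 bases before to 50 after the start, in the 5 receptors with an entry. The T-box core occurred in the Cxcr3 window and in 14.5% of all 32851 promoters. Runx cores occurred in the windows of Cxcr3, Cxcr6 and Cx3cr1 and in 16.8% of all promoters. The forkhead core occurred in the Cxcr3 window and in 13.4% of all promoters, whereas the STAT palindrome TTCNNNGAA, held by 8.30%, was in none of the 5 windows. TATAAA and GGGCGG, held by 13.6% and 35.7% of promoters, occurred in the Cxcr4 window alone among the 5. Matches to different motifs did not overlap, whereas the 2 TATAAA matches of Cxcr4, on opposite strands, shared 4 bases. The Ccr2 window held no match, and a match is no evidence of binding. Cxcr5 was not in the promoter table.

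Cd8a and Cd4 RNA followed the labelled cell types, and Cd8b1 did so less cleanly. Cd8a was above 0 in 83.6% of WT and 94.6% of KO CD8 cells and in 7.59% and 7.69% of WT and KO CD4 cells. For Cd4 the shares were 79.7% and 89.7% of WT and KO CD4 cells, against 8.96% and 2.70% among CD8 cells. Cd8b1, the CD8 beta chain, was above 0 in 82.1% of WT and 81.1% of KO CD8 cells, but also in 24.1% of WT and 33.3% of KO CD4 cells, and in 46.7% of WT and 35.9% of KO Foxp3+ cells. Il27ra, the gene named by the genotype, had RNA above 0 in 38.8% of WT and 52.7% of KO CD8 cells, and 48.1% of WT and 52.6% of KO CD4 cells. Its RNA was thus not lower in the cells labelled KO, and a gene-level value does not show whether the deleted part is transcribed, so it checks the genotype labels neither way. WT and KO below are the labelled genotypes. Of Foxp3, Il2ra, Ctla4 and Ikzf2, all regulatory T cell markers, at least 3 were above 0 in 30 of 30 WT and 35 of 39 KO Foxp3+ cells and in 2 of 49 WT and 1 of 39 KO Foxp3- cells. The median number of genes above 0 was 2919 in WT and 2797 in KO CD8 cells, and 2307 in WT and 2650.5 in KO CD4 cells. B2m, a gene that all these cells use, was at 0 in 8 WT CD8 and 6 WT CD4 cells and in 0 KO cells.

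CD8 cells carried Cxcr6 in the largest share, and CD4 cells carried Ccr2. In WT CD8 cells the order by share above 0 was Cxcr6, Ccr2, Cx3cr1, Cxcr3, Cxcr4 and Cxcr5, and between neighbours only the intervals of Cxcr3 and Cxcr4 did not overlap. KO CD8 cells ran Cxcr6, Cxcr3, Ccr2, Cx3cr1, Cxcr4 and Cxcr5, with only Cxcr4 and Cxcr5 apart. In WT CD4 cells the order was Ccr2, Cxcr3, Cxcr6, Cxcr4, Cx3cr1 and Cxcr5, and every pair of neighbours overlapped. In KO CD4 cells it was Ccr2, Cxcr6, Cxcr3, Cxcr4, Cx3cr1 and Cxcr5, with only Cx3cr1 and Cxcr5 apart. Ccr2 did not lead in Foxp3- cells alone. There Cxcr3 came first in WT (53.1% against 46.9% for Ccr2) and Cxcr6 in KO (61.5% against 43.6%), with overlapping intervals.

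**Figure D1:**
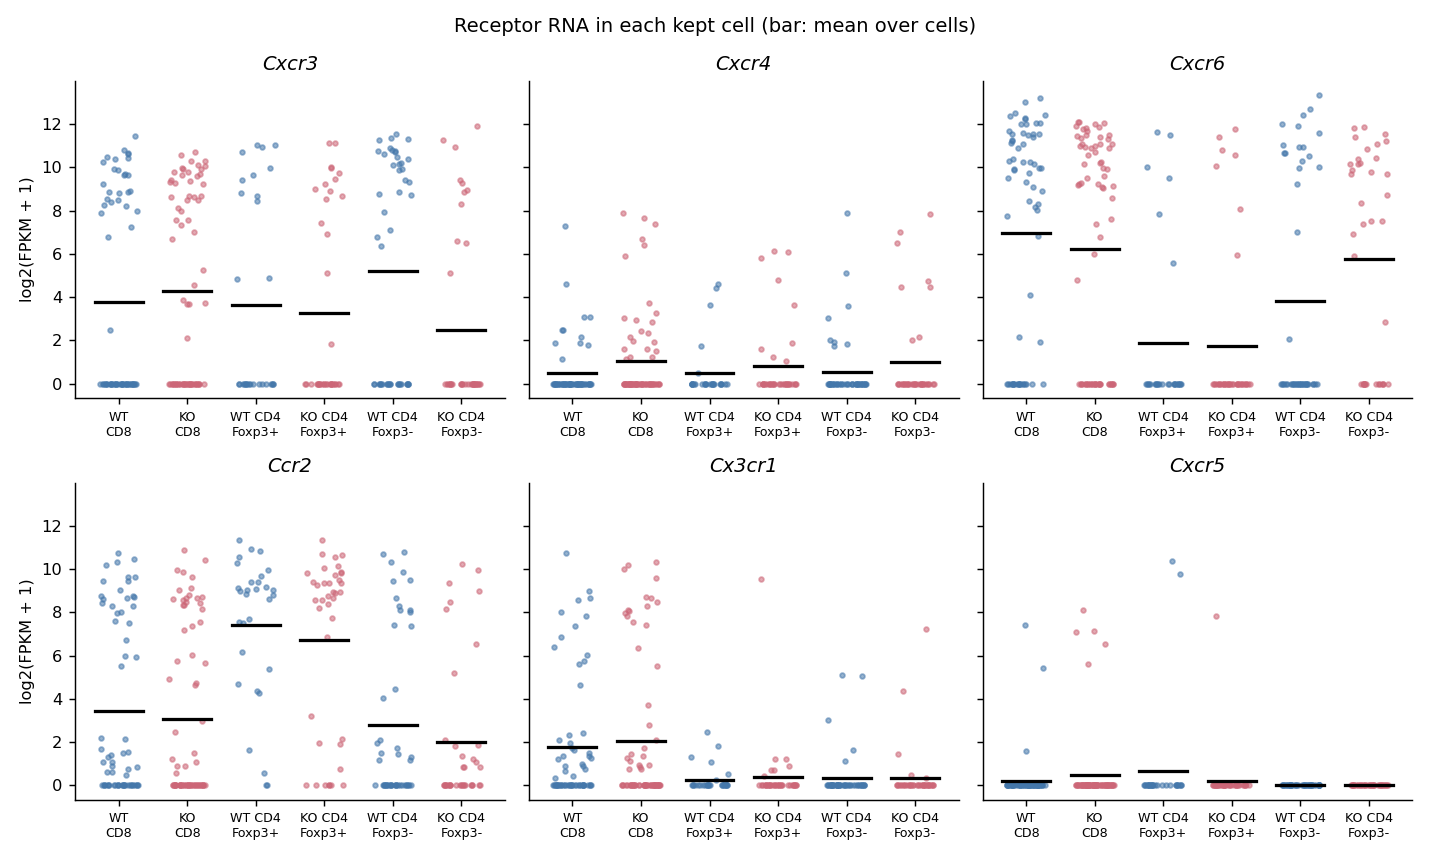
Each point is 1 kept cell, the vertical axis is log2(FPKM + 1), and the bars are means over cells for WT (blue) and KO (red) groups. Cxcr3 and Cxcr6 cells fell into a set at 0 and a set mostly above 6, whereas Ccr2, Cx3cr1 and Cxcr4 also had many cells at low values.

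Cxcr6, the receptor for Cxcl16, had the widest gap between CD8 and CD4 cells in mean log2(FPKM + 1). Its share above 0 reached 68.7% of WT CD8 cells (46 cells, interval 56.2 to 79.4%) and 60.8% of KO ones (45 cells, 48.8 to 72%). In CD4 cells the shares were 30.4% in WT (24 cells, 20.5 to 41.8%) and 39.7% in KO (31 cells, 28.8 to 51.5%). Among WT CD8 cells above 0, FPKM (a fragment count scaled to transcript length and library size) ran from 2.82 to 9567.69 with a median of 1633.38. Among those of KO CD8 cells it ran from 26.5 to 4419.56 with a median of 1918.49. Most positive cells of both genotypes thus sat far above 0, over ranges that overlapped. Mean log2(FPKM + 1) was 6.96 ± 5.16 (SD over 67 cells) in WT CD8 against 3.08 ± 4.88 (SD over 79 cells) in WT CD4, a difference of 3.88. The difference was 2.45 in KO cells. On the log2 of mean FPKM it was 1.18 and 1.09, less than for Cx3cr1 (4.88 and 2.95), and in KO the gap in share was 21.1 percentage points for Cxcr6 and 23.8 for Cx3cr1.

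Most CD4 cells with Cxcr6 RNA were Foxp3-, 18 of 24 in WT and 24 of 31 in KO. RNA was found in 18 of 49 WT Foxp3- cells (36.7%, 23.4 to 51.7%) and 24 of 39 KO Foxp3- cells (61.5%, 44.6 to 76.6%). The Foxp3+ shares were 6 of 30 WT cells (20%) and 7 of 39 KO cells (17.9%). Regulatory T cells by this criterion therefore held Cxcr6 at similar shares in both genotypes, with wide intervals of 7.71 to 38.6% and 7.54 to 33.5%. Foxp3+ minus Foxp3-, the difference of mean log2(FPKM + 1) was -1.95 in WT and -4.02 in KO CD4 cells, and on the log2 of mean FPKM -1.86 and -1.50, so which genotype had the wider gap turned with the scale. In Foxp3- cells, KO minus WT was 1.95. The share and the level moved apart there: the median FPKM of cells above 0 was 1795.43 in WT (3.12 to 10297.9) and 1042.14 in KO (6.23 to 3749.78), and the log2 of mean FPKM gave a KO minus WT difference of -0.33, the other direction.

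Ccr2, the receptor for Ccl2 and related chemokines, was found in most Foxp3+ cells of both genotypes. Ccr2 RNA was found in 28 of 30 WT (93.3%, 77.9 to 99.2%) and 32 of 39 KO Foxp3+ cells (82.1%, 66.5 to 92.5%). Among Foxp3- cells, 23 of 49 held it in WT (46.9%, 32.5 to 61.7%) and 17 of 39 in KO (43.6%, 27.8 to 60.4%). The intervals of Foxp3+ and Foxp3- cells did not overlap in either genotype. Among Foxp3+ cells above 0, FPKM ran from 0.47 to 2629.75 (median 512.84) in WT and from 0.69 to 2636.51 (median 552.90) in KO. Foxp3+ minus Foxp3-, the difference of mean log2(FPKM + 1) was 4.63 in WT and 4.68 in KO CD4 cells, and 1.67 and 2.35 on the log2 of mean FPKM. The median number of genes above 0 was 2822 and 2809 in WT and KO Foxp3+ cells and 2119 and 2500 in Foxp3- cells, and within bins of that number the difference was 5.03 in both genotypes.

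Among CD8 cells Ccr2 was found in 59.7% of WT (40 cells, 47 to 71.5%) and 47.3% of KO cells (35 cells, 35.6 to 59.3%). Many of these values were low: above 10 FPKM the shares were 37.3% and 36.5%, so the difference between genotypes was within 1 percentage point. CD8 minus CD4, the difference of mean log2(FPKM + 1) was -1.12 in WT and -1.28 in KO. In WT it fell short of 1 log2 unit in 4 of 10 alternatives, among them the log2 of mean FPKM (-0.76) and leaving out cells with the other coreceptor (-0.53), and in KO in 2 of 10 (-0.85 and -0.88). Of the 6758 distinct 50-base words of Ccr2 transcripts, 1.91% also occur in transcripts of other genes, and reads of those stretches can be split between genes, so low values of Ccr2 are uncertain. Ccr2 was also above 0 in 6.58% of the libraries under 1000 genes.

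**Figure D2:**
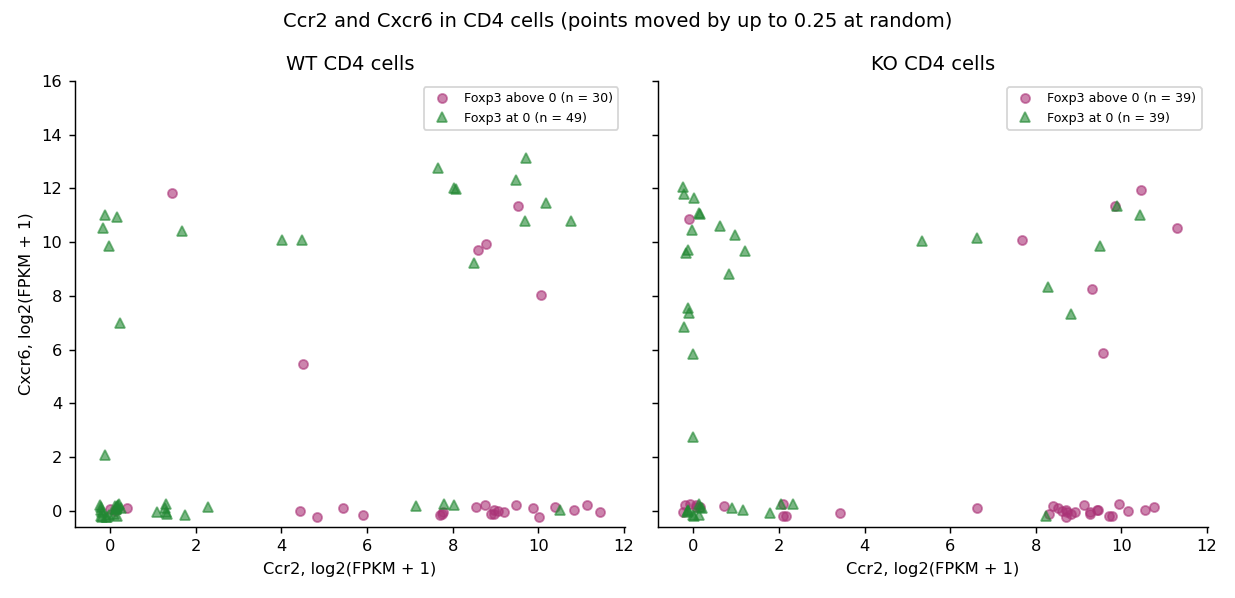
Each point is 1 CD4 cell placed by Ccr2 (horizontal) and Cxcr6 (vertical) as log2(FPKM + 1), with Foxp3+ cells as circles and Foxp3- cells as triangles, WT left and KO right. Foxp3+ cells lie mostly at the lower right with Ccr2 and no Cxcr6, and in KO a column of Foxp3- cells lies at the left with Cxcr6 and no Ccr2.

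Cxcr3, the receptor for interferon-induced ligands, was the receptor for which KO and WT CD4 cells differed past 1 log2 unit. Its share was 48.1% of WT CD4 (38 cells, 36.7 to 59.6%) and 33.3% of KO CD4 cells (26 cells, 23.1 to 44.9%). Mean log2(FPKM + 1) was 4.59 ± 4.94 (SD over 79 cells) and 2.87 ± 4.29 (SD over 78 cells), a KO minus WT difference of -1.72, or -0.99 on the log2 of mean FPKM. Among cells above 0, FPKM ran from 27.8 to 2953.91 (median 1045.05) in WT and from 2.59 to 3841.52 (median 503.04) in KO. Both the share and the level of positive cells were lower in KO, over ranges that overlapped almost wholly. The lower value lay in Foxp3- cells, with 26 of 49 WT (53.1%, 38.3 to 67.5%) and 11 of 39 KO cells (28.2%, 15 to 44.9%) above 0 and a difference of -2.70. In Foxp3+ cells the shares were 40% (12 of 30) and 38.5% (15 of 39), with a difference of -0.36. Without the cells that held 3 or more markers of macrophages, class II antigen presentation or dendritic cells, the Foxp3+ difference was 1.14. It was also above 0 in 3 of the other 10 alternatives, at 0.0069 to 0.20, so its direction was not settled.

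Among CD8 cells Cxcr3 was found in 41.8% of WT (28 cells, 29.9 to 54.5%) and 52.7% of KO cells (39 cells, 40.8 to 64.4%). The KO minus WT difference was 0.52, and it was -0.04 without cells lacking B2m or Cd3 RNA, -0.13 at 2000 genes or more and -0.17 on the log2 of mean FPKM. Median FPKM of cells above 0 was 535.66 in WT and 406.19 in KO. CD8 minus CD4, the difference was -0.82 in WT and 1.42 in KO, the latter 0.084 on the log2 of mean FPKM. By share, Cxcr3 was thus in more CD4 than CD8 cells of WT and in more CD8 than CD4 cells of KO. The intervals overlapped in both genotypes.

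Cx3cr1, the fractalkine receptor, was found above low values almost only in CD8 cells. Its share was 46.3% of WT (31 cells, 34 to 58.9%) and 39.2% of KO CD8 cells (29 cells, 28 to 51.2%), against 15.2% and 15.4% of WT and KO CD4 cells. Above 10 FPKM the shares were 19.4% and 23% of WT and KO CD8 cells and 2.53% and 3.85% of CD4 cells. The CD8 minus CD4 difference was 1.48 in WT and 1.70 in KO, under 1 with a pseudocount of 10 (0.78 and 0.98) and, in WT, with all libraries (0.99). Among CD8 cells above 0, FPKM ran from 0.25 to 1690.41 (median 3.27) in WT and from 0.70 to 1307.08 (median 80) in KO. The KO minus WT difference in CD8 cells was 0.29, although the share above 0 was lower in KO. In KO CD4 cells 1 cell at 757.42 FPKM decided the mean: KO minus WT was 0.07 on mean log2(FPKM + 1) and 2.64 on the log2 of mean FPKM. Cx3cr1 was above 0 in 10.5% of the libraries under 1000 genes.

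Cxcr4 and Cxcr5 were sparse. Cxcr4, the Cxcl12 receptor, was found in 16.4% of WT and 29.7% of KO CD8 cells and in 16.5% of WT and 21.8% of KO CD4 cells, and above 10 FPKM in 2.99%, 9.46%, 7.59% and 14.1%. Its highest cell reached 234.85 FPKM, under the median of Cxcr6-positive cells in every group. KO minus WT was 0.56 in CD8 and 0.38 in CD4 cells. Cxcr5, the receptor of follicular T cells, was found in 3 WT and 5 KO CD8 cells and in 2 WT and 1 KO CD4 cell. The 3 CD4 cells were Foxp3+, at 879.15 and 1316.14 FPKM in WT and 224.10 FPKM in KO. None of 49 WT and none of 39 KO Foxp3- cells held it, with exact upper limits of 7.25% and 9.03%. Cxcr5 reached 10% of cells in no group and was left out of the counts of differences.

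**Figure D3:**
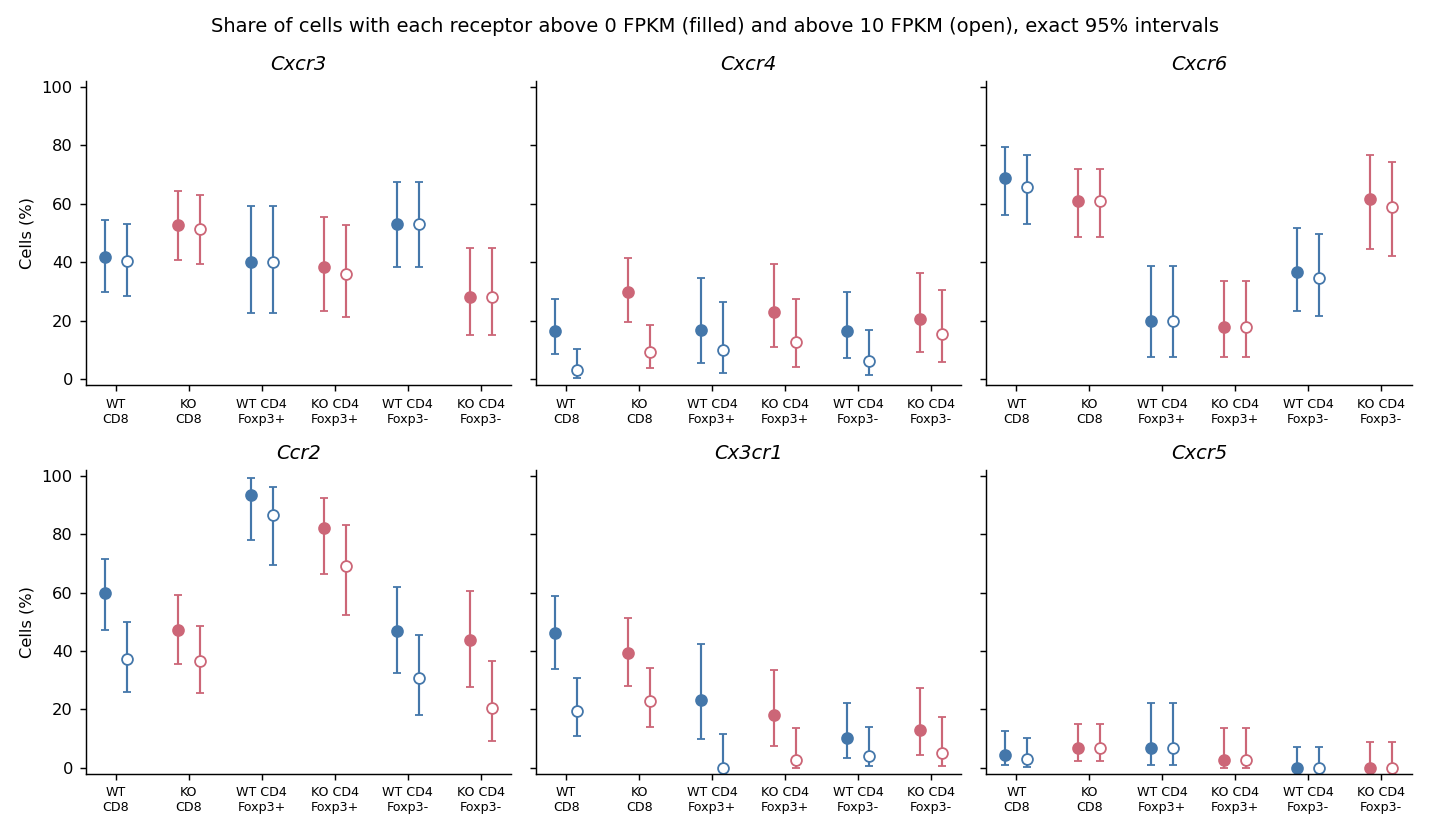
Shares of cells (percent, vertical axis) with each receptor above 0 FPKM (filled) and above 10 FPKM (open) in 6 groups, with exact 95% intervals, WT blue and KO red. Ccr2 is highest in the Foxp3+ groups at 93.3% and 82.1%, and Cxcr6 is lowest there at 20% and 17.9%.

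Set against all genes, the receptors' calls read as follows, where called means a difference of mean log2(FPKM + 1) of at least 1 among genes detected in 10% or more of either group's cells. KO minus WT, 0 of the 5 receptors that passed this filter were called in CD8 cells, where 9.76% of genes were, and 1 of 5 in CD4 cells (Cxcr3), where 8.07% were. In CD8 cells Cxcr6 differed by -0.74 and ran from -1.81 to 0.0095 over the alternatives, past 1 log2 unit in 2 of 10. Ccr2 differed by -0.36 there and was past it in 1 of 10. In Foxp3+ cells 0 of 5 were called against 13.2% of genes. In Foxp3- cells 2 of 5 were called (Cxcr3 lower, Cxcr6 higher) against 13.8%. Of all genes called, 1005 of 1106 in Foxp3- cells and 632 of 660 in CD4 cells were higher in KO. Cxcr6 in Foxp3- cells thus went the way of most called genes, and Cxcr3 went the other way in both. The median number of genes above 0 was also higher in KO Foxp3- cells, 2500 against 2119 in WT. CD8 minus CD4, 3 of 5 were called in WT (Cxcr6 and Cx3cr1 higher, Ccr2 lower) against 16.2% of genes, and 4 of 5 in KO (Cxcr3 also higher) against 10.5%. Foxp3+ minus Foxp3-, 3 of 5 were called in WT (Ccr2 higher, Cxcr6 and Cxcr3 lower) against 24.4%, and 2 of 5 in KO (Ccr2 and Cxcr6) against 17.9%. Of all genes called, 1265 of 1451 in WT and 652 of 888 in KO were higher in CD8 than in CD4 cells. Those higher in Foxp3+ than in Foxp3- cells were 1948 of 2097 in WT and 1311 of 1574 in KO. There Ccr2 went the way of most called genes and Cxcr6 the other way. The groups compared share cells between these comparisons, so the counts are not independent of each other.

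**Figure D4:**
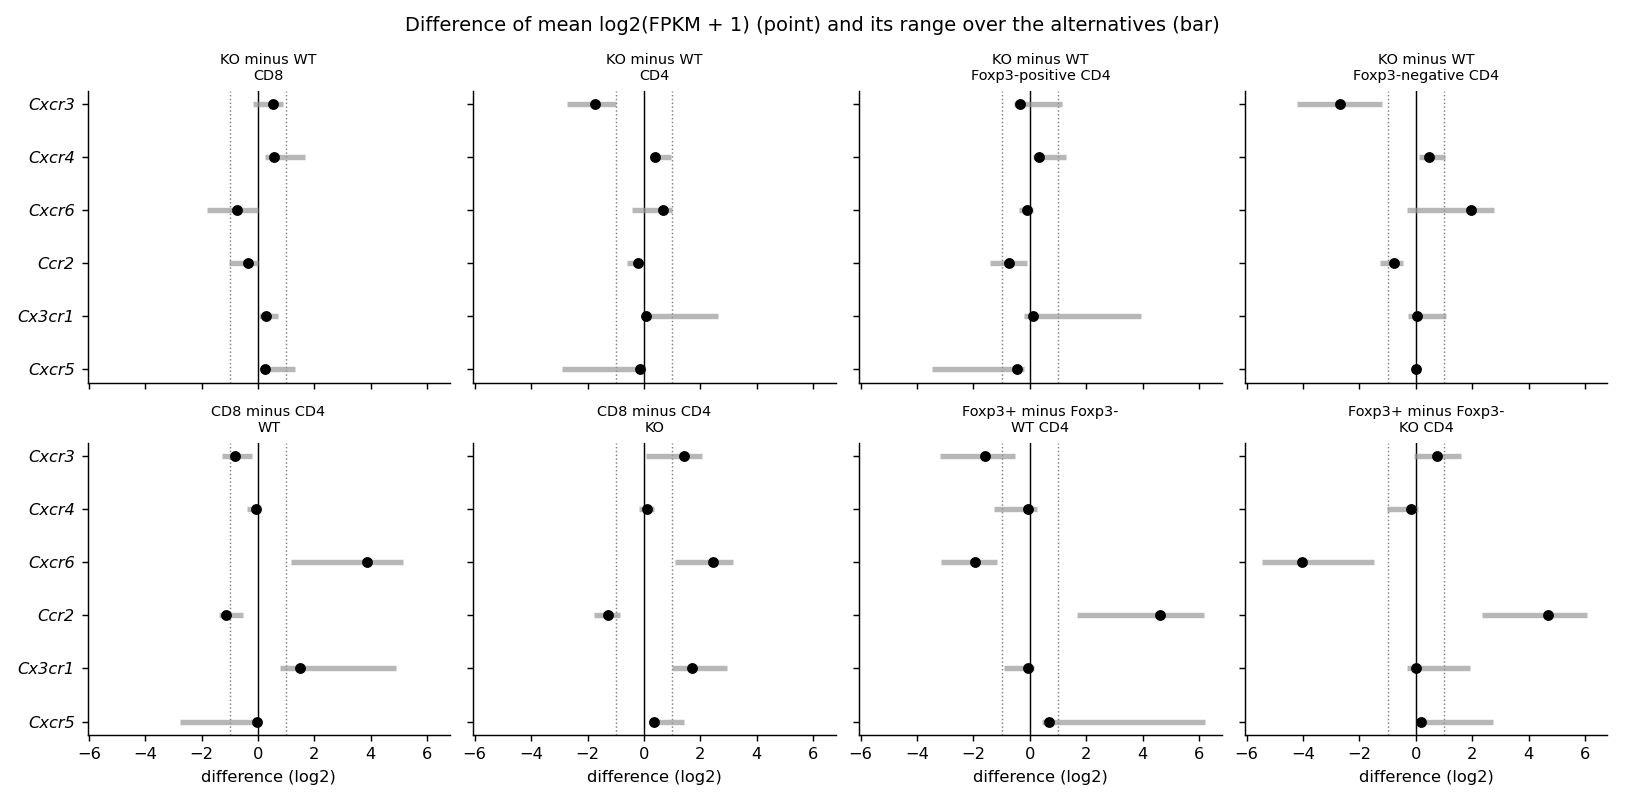
Difference of mean log2(FPKM + 1) for each receptor (points) in the 8 comparisons, with the range over the alternative settings (grey bars) and dotted lines at 1 and -1. Ccr2 and Cxcr6 keep their side of 0 in both Foxp3 comparisons, whereas the bar of Cxcr6 in Foxp3- cells, KO minus WT, reaches -0.33.

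Some pairs of receptors were found together in single cells, and others were not. The pairs given are examples among all pairs. In WT CD8 cells, Cxcr6 was above 0 in 34 of 40 cells with Ccr2 (85%, 70.2 to 94.3%) and in 12 of 27 without it (44.4%, 25.5 to 64.7%). In KO CD8 cells the numbers were 27 of 35 (77.1%, 59.9 to 89.6%) and 18 of 39 (46.2%, 30.1 to 62.8%). Cells with Ccr2 also had more genes above 0, with medians of 3258.5 against 2473 in WT and 2933 against 2665 in KO, and the part of depth in this was not tested. In WT CD4 cells, Cxcr3 was above 0 in 19 of 24 cells with Cxcr6 (79.2%, 57.8 to 92.9%) and 19 of 55 without it (34.5%, 22.2 to 48.6%). In KO CD4 cells it was in 9 of 31 (29%, 14.2 to 48%) and 17 of 47 (36.2%, 22.7 to 51.5%). The intervals of cells with and without Cxcr6 did not overlap in WT CD4 cells and overlapped in KO CD4 cells, and the difference between the genotypes was not tested. Other pairs showed no such gap. In KO CD4 cells, Cxcr6 was above 0 in 34.7% of cells with Ccr2 and 48.3% without it. In WT CD4 cells, Ccr2 was above 0 in 65.8% of cells with Cxcr3 and 63.4% without it. Both had overlapping intervals.

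Cells with Cxcr3, Cxcr6 and Ccr2 together made up 26.9% of WT CD8 (18 cells, 16.8 to 39.1%) and 27% of KO CD8 cells (20 cells, 17.4 to 38.6%). In CD4 cells they made up 19% of WT (15 cells, 11 to 29.4%) and 5.13% of KO cells (4 cells, 1.41 to 12.6%). The CD8 groups matched closely, and the KO CD4 share was the lowest of the 4. With each receptor above 10 FPKM, a setting added after the values had been seen, the shares were 22.4%, 23%, 16.5% and 5.13%. No cell held all 6 receptors, and 7 WT and 4 KO CD8 cells and 11 WT and 8 KO CD4 cells held none above 0. The cells with none had medians of 1272, 2750.5, 1853 and 2516.5 genes above 0, in that order. Over each whole group the medians were 2919, 2797, 2307 and 2650.5, and the part of depth was not tested.

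Other T cell genes went with the receptors. Of 24 partner genes, those named differed by at least 20 percentage points in the same direction in both genotypes. In CD8 cells Gzmb, the cytotoxic protease granzyme B, was above 0 in 80.4% of WT cells with Cxcr6 against 4.76% without, and in 44.4% against 17.2% of KO cells. Tbx21 (54.3% against 28.6% in WT) and Mki67, a marker of dividing cells (50% against 14.3% in WT), followed Cxcr6 too. The intervals with and without Cxcr6 overlapped for Tbx21 and Mki67 in both genotypes and for Gzmb in KO. WT CD8 cells with Cxcr6 had a median of 3441 genes above 0 against 2109 without it, and KO CD8 cells 2831 against 2749, and the part of depth was not tested.

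Ccr2 in CD8 cells went with Gzmb, Gzmk (granzyme K), Havcr2 (the inhibitory receptor Tim-3), Ifng (interferon gamma) and Rgs1, a regulator of G-protein signalling. Gzmk was above 0 in 70% of WT CD8 cells with Ccr2 and 18.5% without, and in 31.4% and 7.69% of KO cells. Havcr2 was above 0 in 75% and 29.6% of WT and in 31.4% and 7.69% of KO cells. Cells with Cx3cr1 held Tcf7, a transcription factor of naive and memory cells, less often and Icos and Gzmb more often: Tcf7 was in 12.9% against 33.3% of WT and 37.9% against 66.7% of KO cells. The median number of genes above 0 was 3399 with Cx3cr1 and 2659.5 without in WT CD8 cells, and 2784 and 2810 in KO, and the part of depth was not tested. Cxcr4 went with S1pr1, the receptor for tissue egress, in CD8 cells. In WT, S1pr1 was above 0 in 6 of 11 cells with Cxcr4 (54.5%, 23.4 to 83.3%) and 11 of 56 without it (19.6%, 10.2 to 32.4%). In KO, the numbers were 17 of 22 (77.3%, 54.6 to 92.2%) and 27 of 52 (51.9%, 37.6 to 66%). These intervals overlapped in both genotypes. So did those of Ifng and Rgs1 by Ccr2 and of Tcf7 and Icos by Cx3cr1. In KO alone, those of Gzmk and Havcr2 by Ccr2 overlapped.

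In CD4 cells Cxcr3 went with Tbx21, which was above 0 in 39.5% of WT cells with Cxcr3 and 9.76% without, and in 38.5% and 17.3% of KO cells. The intervals overlapped in KO and not in WT. Ccr2 went with Foxp3, which restates the Foxp3 split above, with Gzmb and Klrg1, a receptor of differentiated cells, and against Tcf7. Foxp3 was above 0 in 54.9% of WT CD4 cells with Ccr2 and 7.14% without, and in 65.3% and 24.1% of KO cells. Gzmb was above 0 in 39.2% of WT CD4 cells with Ccr2 and 7.14% without, and in 59.2% and 13.8% of KO cells. Tcf7 was in 25.5% and 67.9% of WT and in 16.3% and 51.7% of KO cells. CD4 cells with Ccr2 had a median of 2504 genes above 0 in WT and 2677 in KO, against 2110.5 and 2586 without it, and the part of depth was not tested. These shares were taken over Foxp3+ and Foxp3- cells together. The gaps in Gzmb, Klrg1 and Tcf7 by Ccr2 thus cannot be told apart from a difference between Foxp3+ and Foxp3- cells.

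**Figure D5:**
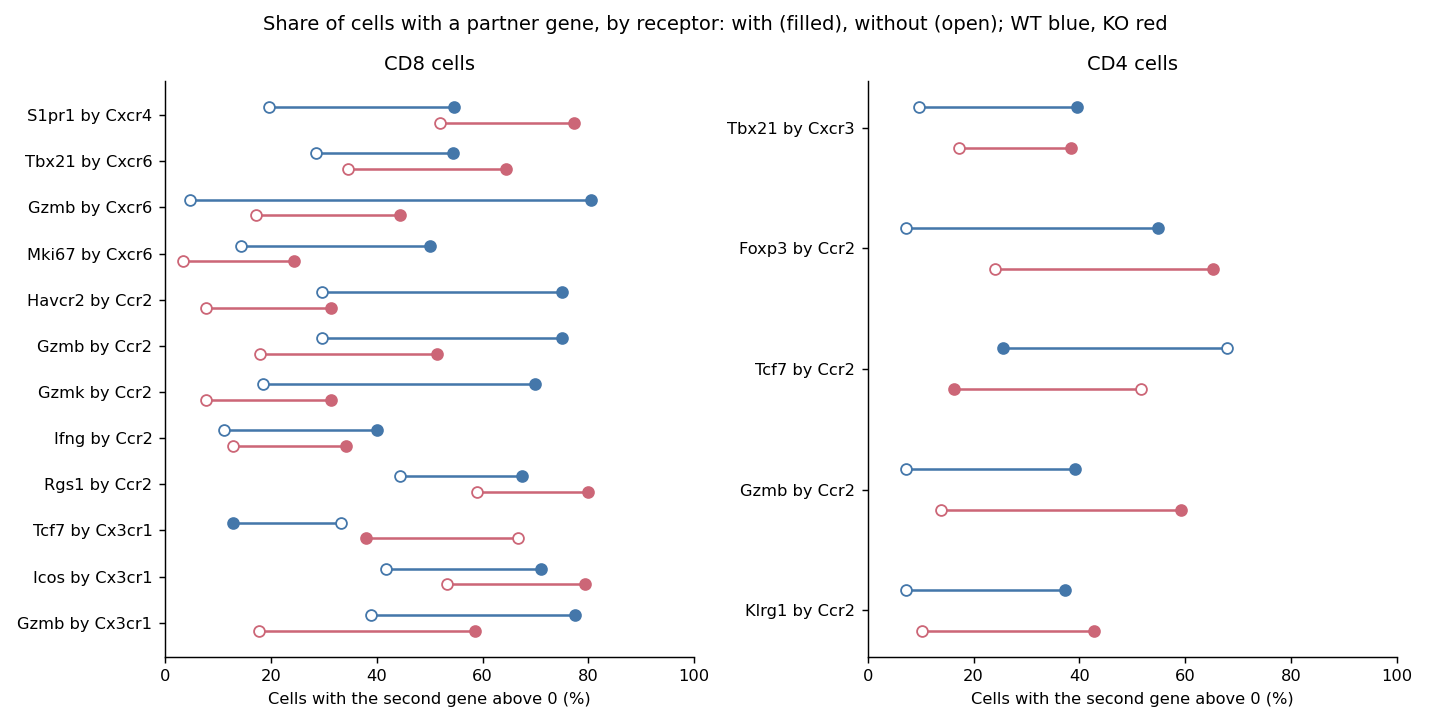
Share of cells (percent, horizontal axis) with the named partner gene above 0 among cells with a receptor (filled) and without it (open), for CD8 cells (left) and CD4 cells (right), WT blue and KO red. The widest gap is Gzmb by Cxcr6 in WT CD8 cells, 80.4% against 4.76%.

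Over all kept cells, genes were also ranked by likeness to each receptor, as the mean Spearman rho within the 4 groups over 5845 genes. This is a description, since cells of a group share a source and differ in depth. Among the 3 nearest to Ccr2 were Gzmb (0.49) and Glrx, a glutaredoxin (0.47), where the rho of Ccr2 with genes above 0 per cell was 0.29. Nearest to Cxcr6 were Id2, a transcriptional regulator of effector cells (0.44), the glycolytic enzyme gene Eno1 (0.40) and Nkg7 of cytotoxic granules (0.40), beside 0.26 for genes per cell. Nearest to Cxcr3 were Cd44, Ifngr1 and Coro1a, all at 0.32, beside 0.17. For Cxcr4 and Cx3cr1 no gene reached 0.3, and Cxcr5 had too few positive cells.

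Of 20 other receptors in the list, 9 passed the filter in CD8 cells, with 3 higher and 1 lower by at least 1 in KO, where 9.76% of all genes tested were past that line (536 of 881 of them higher). S1pr1 was higher by 2.84, Ccr7, the lymph node homing receptor, by 2.53 and Gpr183, an oxysterol receptor, by 2.27. The median of the 9 was 0.45, beside -0.08 over all genes tested. In CD4 cells 12 passed and 4 were higher and 0 lower, beside 8.07% of all genes (632 higher and 28 lower), led by Gpr183 (2.03) and Ccr4, a receptor of helper and regulatory T cells (1.62), with a median of 0.16 beside 0.17. In Foxp3+ cells 7 of 13 were past the line, beside 13.2% of all genes: among them Ccr3 (2.23) and Ccr4 (2.20) were higher and Ccr8 (-1.56) was lower in KO. In Foxp3- cells Gpr183 (2.33) was the only 1 of 10 past the line, a share under the 13.8% of all genes. Cxcr2, above 0 in 89.7 to 95.5% of cells of each of the 4 groups, has 6.68% of its 50-base words in other genes and is uncertain.

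Of the 10 listed ligand genes, Cxcl11 passed the filter in CD8 cells and Cxcl10 and Cxcl11 in CD4 cells. Cxcl10, a Cxcr3 ligand, was higher in KO CD4 cells by 2.26, at 24.4% of KO against 1.27% of WT cells. It passed the filter through the KO cells alone. Cxcr3 itself was lower in KO CD4 cells, and a link between ligand and receptor was not tested. Cxcl11 differed by -0.24 in CD8 and -0.02 in CD4 cells. Of 25 signalling genes, 23 passed in CD8 cells with 2 higher and 2 lower, beside 9.76% of all genes. Rac2, a GTPase of cell motility, was higher by 1.16 and Rgs1 by 1.09, and Rgs16, another regulator of G-protein signalling, and Gng2 differed by -2.66 and -1.03. In CD4 cells 24 passed with 5 higher, led by the GTPase gene Rap1a (2.12) and Rgs2 (2.05), and 1 lower, Rgs16 (-1.09), where 632 of the 660 genes past the line (8.07%) were higher. The medians were 0.11 in CD8 and 0.38 in CD4 cells, beside -0.08 and 0.17 over all genes.

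The population libraries gave 1 value a group, and in such bulk samples fewer cells of a type and less RNA per cell cannot be told apart. On the log2(FPKM + 1) scale Cxcr6 was 10.50, 10.65, 9.37 and 10.84 in the WT and KO CD8 and the WT and KO CD4 libraries, in that order. KO was thus higher by 1.47 in CD4 and by 0.15 in CD8 libraries, and CD8 was above CD4 in WT but not in KO, unlike in single cells. The log2 of mean FPKM over single cells was 10.66, 10.14, 9.48 and 9.05 in the same order, a KO minus WT value of -0.43 in CD4 cells, the other direction from the libraries. Cxcr3 was 8.60, 9.05, 9.79 and 9.57, with KO minus WT of -0.22 in CD4, smaller than in single cells. Ccr2 was 7.14, 7.66, 8.61 and 9.46 and Cx3cr1 6.24, 7.37, 4.33 and 4.73, so Cx3cr1 was higher in CD8 here too, and Ccr2 in CD4. Cxcr4 was listed at 0 in WT CD8 and was 1.94, 3.42 and 3.02 elsewhere, and Cxcr5 ran from 3.69 to 4.07. The WT CD4 library held Cd8b1 at 159.69 FPKM and Cd8a at 0.47 FPKM. KO minus WT, Cx3cr1 (1.12) was past 1 log2 unit in CD8 libraries, where 43% of genes were, beside Cxcr4 with its value of 0 in WT. Cxcr6 alone of the 6 was past it in CD4 libraries, where 40.7% of genes were. These libraries also held RNA of other cells. The summed FPKM of 10 macrophage and monocyte markers was 83.8, 898.5, 1391.0 and 3667.4 in the same order. Csf1r, C1qa, C1qb, C1qc, Mrc1 and Ms4a7 were at 0 in the WT CD8 library. C1qa, C1qb, C1qc and Cd14 were at 0 in KO CD8, and C1qb, C1qc and Ms4a7 in KO CD4. All 10 were above 0 in WT CD4. Markers of pigment cells summed to 14637.3 FPKM in the WT CD8 library. Macrophages and monocytes also use Ccr2 and Cx3cr1, and their part in these values was not tested.

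Of the kept single cells, 35 held 3 or more of 21 markers of macrophages, class II antigen presentation and dendritic cells. The summed FPKM of the 10 macrophage and monocyte markers had a median of 0.0 in each group and reached 959.4, 3269.1, 1602.5 and 6777.3 in WT and KO CD8 and in WT and KO CD4 cells, in that order. C1qb, C1qc, Mrc1 and Ms4a7 were at 0 in every WT CD8 cell, Fcgr1, Mrc1 and Ms4a7 in every KO CD8 cell, Csf1r, Fcgr1, C1qc and Ms4a7 in every WT CD4 cell and C1qa in every KO CD4 cell. Without the 35 cells, Ccr2 differed between Foxp3+ and Foxp3- cells by 5.14 in WT and 4.91 in KO, Cxcr6 between CD8 and CD4 cells by 3.48 and 2.52, and Cxcr3 between KO and WT CD4 cells by -1.42.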

How the data were processed

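Single-cell and population libraries were made with Smart-seq2, per the labels' protocols. FPKM values, deposited as 1 table, were made by the authors with Bowtie and RSEM on mm10, per the submitters' processing notes, and scaled by TMM, per the labels' description; versions and annotation are not given in the sources used here. Without counts or molecular identifiers, depth is unknown, and genes above 0 per cell stand in for it. Cells with at least 1000 genes above 0 were kept. Means of log2(FPKM + 1) were compared without a test, because each genotype and cell type is 1 sample; called means a difference of at least 1 among genes detected in 10% or more of either group's cells. Groups came from sample titles. No whole column was identical to another. Intervals are exact (scipy 1.17.1; pandas 2.3.3, numpy 2.4.6, Python 3.11.15). The script was tested on simulated data with known shifts put into commonly detected genes, a setting unlike that of sparse receptors. Doublets were not called.

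Named genes were the 6 receptors, Foxp3, Il27ra, Cd8a, Cd4, the 2 detected members of each pathway list with the largest difference either way in each KO minus WT comparison, partner genes whose share differed by at least 20 percentage points the same way in both genotypes, and the 3 genes most like each receptor where the mean rho reached 0.3. Gpr183 in CD8 cells was named after its value was seen. The members and lists were chosen with earlier results of these data known. Alternatives changed the pseudocount, gene minimum, cells kept, Foxp3 threshold, averaging and gene-number bins. Co-detection above 10 FPKM, setting values up to 10 FPKM to 0 and the 50-base word comparison were added after seeing the data. Some genes that the rule names are counted in the lists and not reported here by name.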

Additional observations from a re-analysis of the deposited data

Results flagged for a closer look

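Cxcr3 differed between KO and WT in opposite directions in CD8 cells (0.52) and CD4 cells (-1.72), which differ by -2.24 log2 units. Seen the other way, CD8 minus CD4 was -0.82 in WT and 1.42 in KO, a gap of 2.24. Foxp3+ minus Foxp3- for Cxcr3 was -1.58 in WT and 0.77 in KO CD4 cells, a gap of 2.34. For Cxcr6, KO minus WT was -0.11 in Foxp3+ and 1.95 in Foxp3- cells, a gap of 2.06. These were singled out because the groups moved in opposite directions; the differences between them were not tested, and with 1 sample a group cannot be. On the log2 of mean FPKM the opposition did not hold for Cxcr3 between KO and WT (-0.17 in CD8 and -0.99 in CD4 cells) or between Foxp3+ and Foxp3- cells (-0.76 in WT and -0.05 in KO). It held for Cxcr3 in CD8 minus CD4 (-0.74 in WT and 0.084 in KO), and for Cxcr6 it turned round (0.04 in Foxp3+ and -0.33 in Foxp3- cells).

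In the single-cell libraries under 1000 genes, which entered no comparison, Ccr2 was above 0 in 6.58% (5 of 76 libraries, 2.17 to 14.7%) and Cx3cr1 in 10.5% (8 of 76, 4.66 to 19.7%). These are given as signal outside the cells compared, with no comparison made.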

How the results depend on the processing

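With 1 sample a group no replicate could be left out, and no paired analysis was possible because the groups share no replicate number. Over 10 or 11 alternatives a comparison, the Foxp3+ minus Foxp3- difference of Ccr2 ran from 1.67 to 6.19 in WT and 2.35 to 6.06 in KO, that of Cxcr6 from -3.15 to -1.17 and -5.46 to -1.50, and CD8 minus CD4 of Cxcr6 from 1.18 to 5.14 and 1.09 to 3.15, all past 1. KO minus WT of Cxcr3 in Foxp3- cells ran from -4.21 to -1.21. For the changes that follow, the cause was not tested.

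On the log2 of mean FPKM, KO minus WT of Cxcr6 in Foxp3- cells reversed to -0.33. Cxcr3 dropped under 1 in KO minus WT of CD4 cells (-0.99), CD8 minus CD4 in KO (0.084) and Foxp3+ minus Foxp3- in WT (-0.76), as did Ccr2 CD8 minus CD4 in WT (-0.76). Past 1 came Cxcr4 KO minus WT in CD8 (1.66), Foxp3+ (1.27) and Foxp3- cells (1.02) and Foxp3+ minus Foxp3- in WT (-1.28) and KO (-1.03), and Cx3cr1 KO minus WT in CD4 (2.64), Foxp3+ (3.94) and Foxp3- cells (1.08) and Foxp3+ minus Foxp3- in KO (1.94). Without cells holding 3 or more myeloid markers, KO minus WT of Cxcr3 in Foxp3+ cells reversed to 1.14, Cxcr3 Foxp3+ minus Foxp3- in KO reached 1.38, and Ccr2 KO minus WT reached -1.41 in Foxp3+ and -1.18 in Foxp3- cells.

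With all libraries, Cxcr3 gave 1.38 and -0.54 for Foxp3+ minus Foxp3- in KO and WT and -1.13 for CD8 minus CD4 in WT, and Cx3cr1 0.99 for the last. At 2000 genes or more, KO minus WT in CD8 cells was -1.76 for Cxcr6 and -1.03 for Ccr2, and Cxcr3 Foxp3+ minus Foxp3- in KO 1.13. Without cells lacking B2m or Cd3, Cxcr6 KO minus WT in CD8 was -1.81, Ccr2 CD8 minus CD4 in WT -0.86 and Ccr2 KO minus WT in Foxp3- cells -1.26. Within bins of gene number, Cxcr3 CD8 minus CD4 in WT was -1.09 and Ccr2 KO minus WT in Foxp3- cells -1.24. Without cells holding the other coreceptor, Ccr2 KO minus WT was -1.10 in Foxp3- and -1.03 in Foxp3+ cells and CD8 minus CD4 -0.53 in WT and -0.85 in KO, and Cxcr3 was 1.61 for Foxp3+ minus Foxp3- in KO and -1.26 for CD8 minus CD4 in WT.

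With a pseudocount of 0.1, Ccr2 KO minus WT in Foxp3+ cells was -1.09, Cxcr3 Foxp3+ minus Foxp3- in KO 1.10 and CD8 minus CD4 in WT -1.03. With 10, CD8 minus CD4 was 0.82 for Cxcr3 in KO, -0.74 and -0.88 for Ccr2 and 0.78 and 0.98 for Cx3cr1 in WT and KO. The share of genes past 1, KO minus WT, became 22.5% in CD8, 18.6% in CD4, 27.5% in Foxp3+ and 26.9% in Foxp3- cells with 0.1, and 3.07%, 1.76%, 3.17% and 3.86% with 10. For CD8 minus CD4 in WT and KO it became 34.3% and 21.7% with 0.1, and 4.08% and 2.90% with 10. For Foxp3+ minus Foxp3- it became 39.8% and 32.6%, and 10.1% and 6.27%. Above 10 FPKM in place of 0, 10 of 24 receptor shares moved outside their interval.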
